A study of Schizosaccharomyces pombe with 6 samples.

Results

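The genes described here are the galactose genes of fission yeast (*Schizosaccharomyces pombe*), gal1, gal7, gal10 and mel1, with say1, a gene near 3 of them at a chromosome end. They were chosen by name, with their values in this same comparison already known, so those values are given as a description and without a test. Each of the 5 genes had 1 named probe set, among 2917 *S. pombe* probe sets for 2899 genes. The say1 probe set carries the older name mug180 in the array's annotation and was matched through its gene ID. Total RNA was taken from 3 wild-type samples and 3 samples of an isp7 null strain, all in mid-log phase at 30 °C in Edinburgh minimal medium with 5 g/L NH4Cl as nitrogen source, and each was hybridized to 1 Affymetrix array. The labels do not give the strain background, the construct that removed isp7, the carbon source beyond the name of the medium, or whether the replicates are separate cultures, so errors describe how far these arrays differ, and part of that may be technical. Isp7 is a member of the 2-oxoglutarate- and iron-dependent dioxygenase family, and the series places it in amino acid uptake and TOR signalling.

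Cells use galactose through the Leloir pathway. Galactokinase (gal1) phosphorylates galactose, a uridylyltransferase (gal7) exchanges it onto a UDP-sugar, and an epimerase (gal10) interconverts UDP-galactose and UDP-glucose. Alpha-galactosidase (mel1) releases galactose from galactosides ahead of this pathway. Ordinary laboratory strains of fission yeast carry these genes but do not grow on galactose as sole carbon source, and UDP-galactose also serves as the donor for the galactose residues that decorate their glycoproteins. The gene say1 is named after the steryl acetyl hydrolase Say1 of budding yeast, which removes acetyl groups from sterols.

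In the order of protein-coding genes in the RefSeq table of assembly ASM294v3, gal1, gal10 and gal7 stood at positions 12, 13 and 15 from the right end of chromosome II, and say1 at position 21. Between say1 and gal7 lie 5 genes, none of which had a named probe set. The 14th gene, tgd1, lies between gal7 and gal10 in this order and covers 93.7% of the length of gal10. By the convention of the systematic names (SPBPB2B2.11 for tgd1, SPBPB2B2.12c for gal10) these overlapping genes lie on opposite strands. Annotated non-coding RNAs likewise cover 58.1% of gal1 (SPBPB2B2.13), 70.6% of say1 (SPBPB2B2.02) and 83.8% of mel1 (SPAC869.07c), and none overlaps gal7 (SPBPB2B2.10c). The sources used here do not say which strand each probe set reads, so the values of these 4 genes are uncertain to that extent. The gene mel1 is not part of the cluster on chromosome II: it stood at position 24 from the right end of chromosome I, near the permease genes put4 and cat1.

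The label of the null strain was checked on isp7 itself, which read 11.70, 11.63 and 11.55 on the log2 scale in wild type against 6.02, 6.38 and 6.17 without the gene. The latter values lay below 7.08, a background level set at percentile 95 of the means of 2601 budding yeast probe sets on the same arrays. Over all *S. pombe* probe sets the correlation was 0.998 to 0.999 within groups and 0.973 to 0.978 between them. A gene is said to rise or fall here where limma's adjusted p was under 0.05 and the change at least 1.5-fold. By that rule 123 probe sets rose and 128 fell, together 8.60% of those tested (4.22% for rises and 4.39% for falls). With each array centred on its median the split was 154 rises and 94 falls.

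In the isp7 null strain say1, gal7 and gal10 stood higher than in wild type, by 5.70-fold, 3.15-fold and 1.97-fold, while gal1, the neighbour of gal10, and mel1 on chromosome I were 1.14-fold higher and 1.13-fold lower, with groups that overlapped. The genes at least 1.5-fold higher therefore include those of the transferase and epimerase of the Leloir pathway. The galactokinase gene is not among them, though an absence of change is not shown for it. In RNA of a whole culture, a change in every cell cannot be told apart from a change in some of the cells. For these 3 genes every null array lay above every wild-type array, which was so for 30.9% of all *S. pombe* probe sets, and nothing is read from that since this comparison chose the genes. Array values near the background or near saturation may understate differences, which was not tested, and levels are not compared between probe sets.

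**Figure D1:**
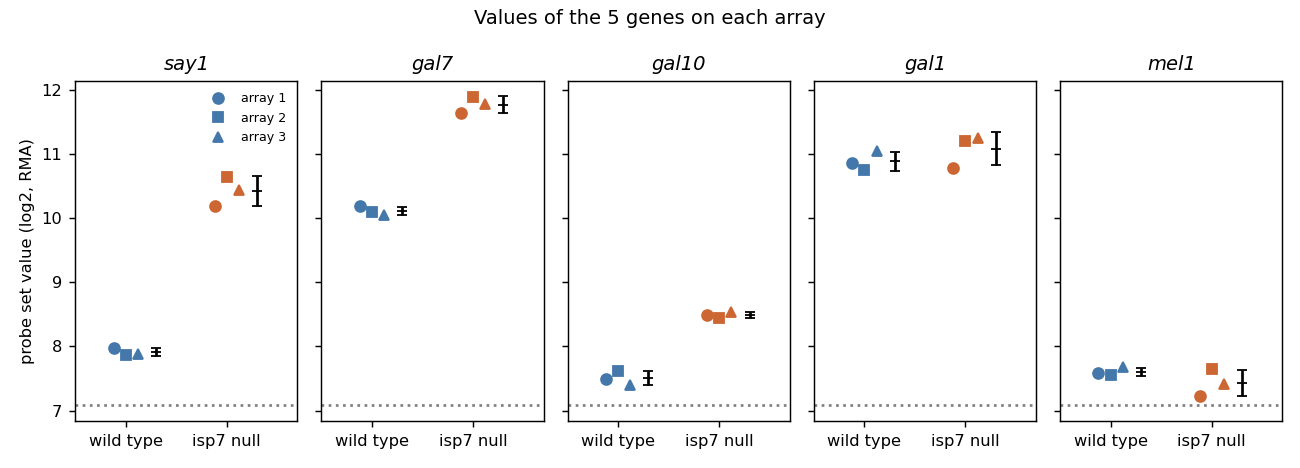
Log2 probe set values of the 5 genes on each of the 6 arrays (symbols mark the array number, black bars the mean ± SD of 3 arrays, the dotted line the background of 7.08). The wild-type and null arrays are apart for say1, gal7 and gal10 and overlap for gal1 and mel1; heights are not comparable between genes.

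The uridylyltransferase gene gal7 read 10.18, 10.09 and 10.05 in wild type and 11.63, 11.88 and 11.78 in the null. All 3 null arrays were above the wild-type arrays, by more than the spread within either group. Its mean was 10.11 ± 0.068 in wild type and 11.76 ± 0.13 in the null (SD, n = 3 each), a log2 change of 1.66 (SE 0.067).

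The epimerase gene gal10 read 7.49, 7.62 and 7.40 in wild type and 8.48, 8.44 and 8.53 in the null. The wild-type values lay only 0.43 above the background on average, and the null arrays were close together, within 0.093 of each other. The log2 change was 0.98 (SE 0.058), between means of 7.51 ± 0.11 and 8.48 ± 0.046 (SD, n = 3 each), just short of the 2-fold that the series' design text names as its higher threshold. After a correction for gene length its log2 change was 1.15. The annotated length of gal10 is 3513 bases, and longer genes tended to be lower in the null, with a Spearman's rho of -0.367 between change and length across genes, which are not replicates of each other.

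The galactokinase gene gal1 read 10.86, 10.74 and 11.05 in wild type and 10.78, 11.20 and 11.25 in the null. The groups overlapped, because null array 1 lay among the wild-type arrays while the other 2 null arrays were above them. The log2 change was 0.19 (SE 0.13), between means of 10.88 ± 0.15 and 11.08 ± 0.26 (SD, n = 3 each), and a change of that size is within the spread of the null arrays. An absence of change is not shown by this: without null array 1 the log2 change was 0.34 and without null array 3 it was 0.11.

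The alpha-galactosidase gene mel1 read 7.58, 7.56 and 7.68 in wild type and 7.23, 7.64 and 7.41 in the null. The null arrays reached below and into the wild-type range. The log2 change was -0.18 (SE 0.098), between means of 7.61 ± 0.063 and 7.43 ± 0.21 (SD, n = 3 each), with the wild-type mean 0.53 above the background.

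The gene say1 read 7.98, 7.87 and 7.89 in wild type and 10.19, 10.64 and 10.44 in the null. Every null array was at least 2.28 above the wild-type mean. The log2 change was 2.51 (SE 0.11), between means of 7.91 ± 0.060 and 10.42 ± 0.23 (SD, n = 3 each). The wild-type mean was 0.83 above the background.

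Ordered by signed change among all 2917 *S. pombe* probe sets, say1 had rank 6 from the top, gal7 rank 14, gal10 rank 37, gal1 rank 619 and mel1 rank 1988.

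**Figure D2:**
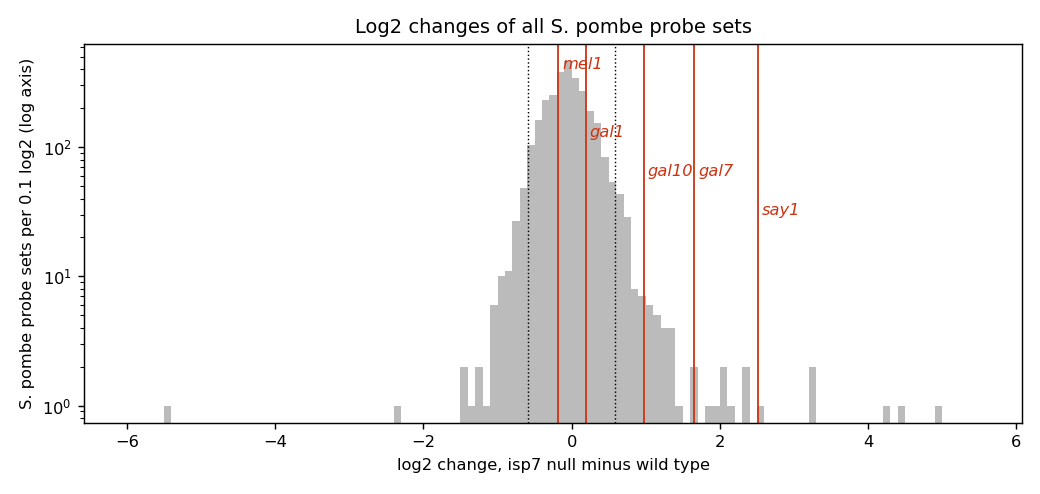
Histogram of log2 changes (isp7 null minus wild type) of the 2917 *S. pombe* probe sets, with counts per bin on a log axis; red lines mark the 5 genes and dotted lines 1.5-fold. The lines of say1 (2.51), gal7 (1.66) and gal10 (0.98) lie in the right tail, and those of gal1 (0.19) and mel1 (-0.18) lie near the centre.

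The 5 genes also varied more between replicate arrays than most probe sets did. The pooled SD within groups was at percentile 99.1 of all *S. pombe* probe sets for gal1, 97.9 for say1, 97.1 for mel1, 89.7 for gal7 and 83.8 for gal10, against a median SD of 0.047 over all probe sets. For gal1, mel1, say1 and gal7 the null arrays were the more spread group, with ranges of 0.47, 0.42, 0.45 and 0.25 against 0.30, 0.12, 0.11 and 0.13 in wild type, while for gal10 the range was 0.093 in the null and 0.22 in wild type. In gal1, gal7, mel1 and say1 the lowest null value came from null array 1, and in gal10 from null array 2. Null array 1 was the lowest of the null arrays in 49.5% of all *S. pombe* probe sets, and its median deviation from the null mean over all of them was -0.014, while on that array gal1 lay 0.30, say1 0.24, mel1 0.20 and gal7 0.13 below their null means. Any part of the array's own quality in these deviations was not tested.

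Probe sets for the budding yeast genes of the same names, on the same arrays, served as a measure of what hybridizes without a perfect match. They were chosen after their values were seen. The budding yeast GAL1 probe set averaged 5.62 in wild type and 5.55 without isp7, and SAY1 averaged 5.77 and 5.74, all below the background. The GAL10 probe set averaged 6.96 and 6.80, also below it, and GAL7 averaged 7.31 and 7.38, slightly above it. Their changes ran from -0.16 to 0.07, and those of all 2601 budding yeast probe sets from -0.34 to 0.41.

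Few genes around the 5 had a named probe set. Only named probe sets were used, 5538 of the 10928 in the table, and the others were not assigned to genes. A gene called measured here is one with a named probe set, so the array may also read some of the rest. Of the 46 protein-coding genes within 10 places of any of the 5, 4 had a named probe set, of which 2 rose and 1 fell. That is 75% of these few genes, against 8.60% of all *S. pombe* probe sets, and was not tested. Beside the cluster on chromosome II the measured neighbour was cao2, a copper amine oxidase gene, which read 9.62, 9.56 and 9.48 in wild type and 10.80, 10.81 and 10.72 in the null. It rose by 1.22 on the log2 scale (SE 0.045, limma adjusted p = 3.88e-06). It stands at position 30 from the chromosome end, on the inner side of say1.

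Beside mel1 on chromosome I the 3 measured neighbours went different ways. The proline permease gene put4 read 12.74, 12.59 and 12.76 in wild type and 14.13, 14.12 and 14.17 in the null, and it rose by 1.44 on the log2 scale (SE 0.049, limma adjusted p = 2.87e-06). The cationic amino acid transporter gene cat1 read 11.92, 12.06 and 11.92 in wild type and 10.96, 10.85 and 11.06 in the null, and its log2 change was -1.01 (SE 0.062, limma adjusted p = 1.32e-05), a fall. The gene pcm2, named as a protein carboxyl methyltransferase and adjacent to mel1 in the gene order, was near the background, with a mean of 7.12 in the wild-type arrays and 6.93 in the null arrays. Its log2 change of -0.18 (SE 0.060, limma adjusted p = 0.0283) did not reach 1.5-fold. Of the genes around mel1 (-0.18), those with large changes therefore moved in opposite directions.

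Over all chromosome ends, taken as the outermost 30 protein-coding genes at each end and without the 5 genes, 34 of 175 genes had a named probe set. Of these 5 rose and 2 fell, a share of 20.6%, against 8.60% of all *S. pombe* probe sets, a difference that was not tested. Their median log2 change was -0.08, against -0.05 over all *S. pombe* probe sets. Besides put4 and cao2 the rises were str3 (log2 change 2.36), a transporter gene of the iron regulon, the catalase gene ctt1 (0.91) and meu23 (0.63), a gene named for its rise in meiosis. Besides cat1 the fall was the dihydroxyacetone kinase gene dak2 (-0.88). The other 27 did not pass by the probe set with the highest mean. One of them was tlh2, a helicase gene listed as the outermost at the same end as the galactose cluster, whose 4 probe sets disagreed, with log2 changes of 0.04, -0.13, -0.20 and -0.96 (limma adjusted p = 0.856, 0.241, 0.0759 and 1.87e-05). All 4 had group means below the background, and those at 0.04 and -0.20 carry the suffix _s_at of probe sets shared by similar transcripts, so those 2 values are not assigned to that copy alone. Of the outermost 30 genes at that end 6 had a named probe set, namely cao2, say1, gal7, gal10, gal1 and tlh2, and the genes between them were not analysed here.

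**Figure D3:**
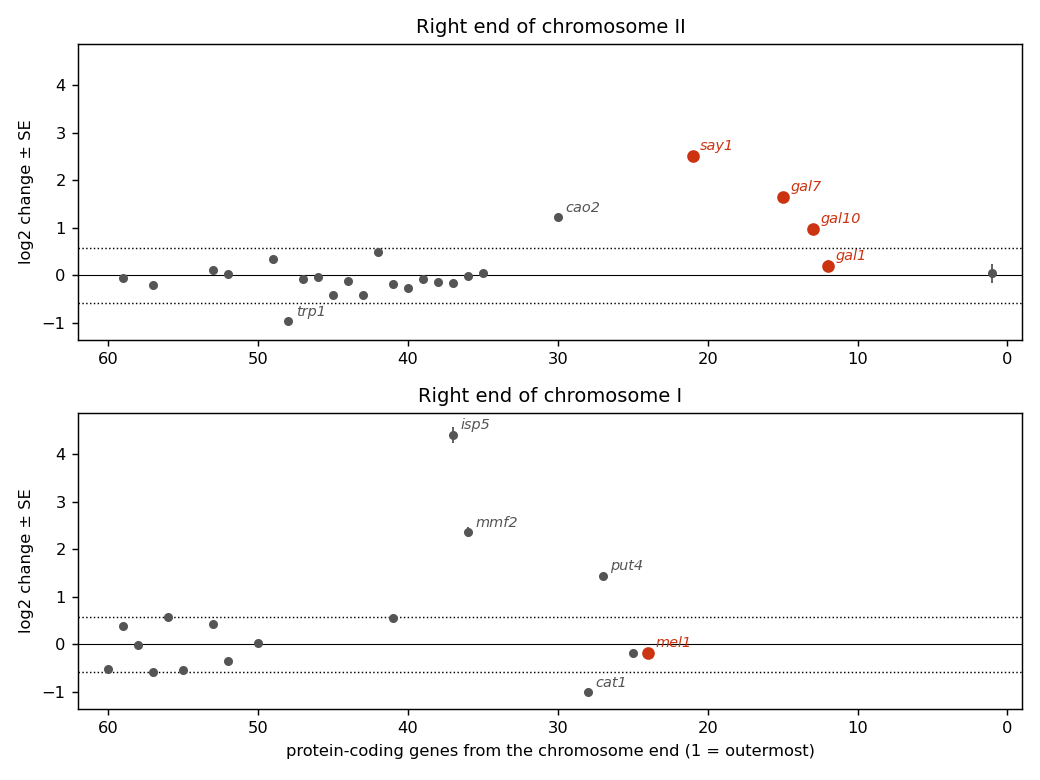
Log2 change ± SE (isp7 null minus wild type) of the measured genes among the outermost 60 protein-coding genes at the right ends of chromosomes II and I, against gene order from the end (1 is outermost); red points are the galactose genes and say1, and dotted lines mark 1.5-fold. On chromosome II the changes are 2.51, 1.66, 0.98 and 0.19 from say1 through gal7 and gal10 to gal1, and on chromosome I mel1 (-0.18) lies beside put4 (1.44) and cat1 (-1.01).

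Other genes connected with UDP-galactose formed a list of 19, of which 12 were measured. Of these 0 rose and 0 fell, where 8.60% of all *S. pombe* probe sets did. At limma's adjusted p of 0.05 alone 5 were higher and 4 lower, and the same number, 9, had an unadjusted p under 0.05. Without a fold threshold that adjusted p was met by 70.7% of all *S. pombe* probe sets. The list's median log2 change was 0.08 and its range -0.30 to 0.43. The lowest value, counted among the 4 lower, was that of mbx2, a transcription factor gene listed under its older name pvg4. Its means of 7.05 in wild type and 6.75 in the null were below the background. The highest was pvg2, a gene needed to add pyruvate to galactose residues of the cell surface, at 0.43 (SE 0.028, limma adjusted p = 1.88e-05).

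The epimerase gene uge1 encodes the second UDP-glucose 4-epimerase of fission yeast beside gal10. Its values lay around a mean of 12.07 ± 0.029 in wild type and at 12.04, 12.11 and 12.04 (mean 12.06 ± 0.040) in the null (SD, n = 3 each), so the groups overlapped. The log2 change was -0.01 (SE 0.032, limma adjusted p = 0.871). The sign of this change was positive in 7 of 17 other settings, and the negative ones include every setting that could not move it. The epimerase genes thus had values of 0.98 for gal10 and -0.01 for uge1, and the difference between them was not tested because gal10 was chosen on this comparison. The gene gms1 encodes the transporter that carries UDP-galactose into the Golgi. It was at 12.31 in each wild-type array and at 12.69, 12.63 and 12.60 in the null, above wild type on every array, but its log2 change of 0.33 (SE 0.031, limma adjusted p = 7.93e-05) was short of 1.5-fold.

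Among 11 measured genes of glucose repression and of sugar breakdown, 2 rose and 0 fell, with a list median of -0.02. The share called was 18.2%, against 8.60% of all *S. pombe* probe sets. The maltase gene mal1 went from 10.13, 10.16 and 10.19 to 11.19, 11.22 and 11.22, a rise of 1.05 on the log2 scale (SE 0.028, limma adjusted p = 1.04e-06). The invertase gene inv1 read 8.65, 8.34 and 8.33 in wild type and 10.58, 10.92 and 9.25 in the null, a rise of 1.81 on the log2 scale (SE 0.39, limma adjusted p = 0.00482). All null arrays of inv1 were above wild type, but null array 3 was far below the other null arrays. The regulator genes of the list, which encode the repressors Scr1, Tup11, Tup12 and Ssn6, the activator Rst2 and subunits of the AMP-activated kinase, had log2 changes between -0.37 and 0.19, none of them a rise or a fall. At limma's adjusted p of 0.05 alone 4 genes of the list were higher, mal1 and inv1 among them, and 2 lower. That adjusted p was met by 70.7% of all *S. pombe* probe sets. Among the regulators ssn6 (-0.37) and scr1 (-0.23) were lower by it, and the kinase genes amk2 (0.19) and ssp2 (0.14) higher. Also among the 9 not called was fbp1, the fructose-1,6-bisphosphatase gene that glucose represses, at -0.02.

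Beside say1, the 4 genes for the acyltransferases that make steryl esters and triacylglycerol (are1, are2, plh1 and dga1) had log2 changes from -0.33 to 0.17. Of these 0 rose and 0 fell, where 8.60% of all *S. pombe* probe sets did. At limma's adjusted p of 0.05 alone, are2 was higher and plh1 lower, and 2 of the 4 had an unadjusted p under 0.05. Without a fold threshold 70.7% of all *S. pombe* probe sets met that adjusted p, so nothing is read from these 2 genes.

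**Figure D4:**
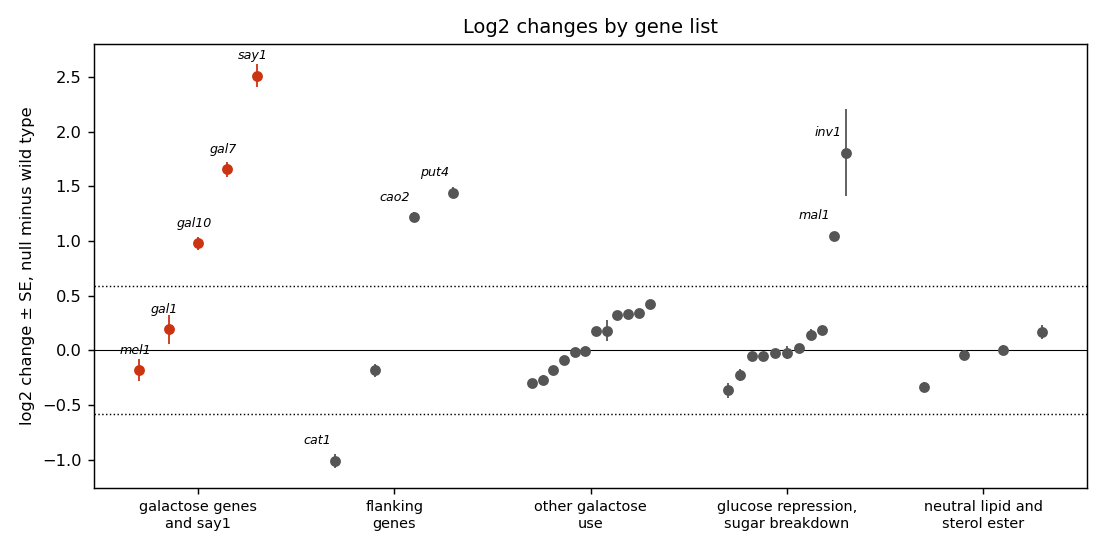
Log2 change ± SE (isp7 null minus wild type) of the galactose genes and say1 (red) and of the measured genes of the flanking, galactose use, sugar and lipid lists (grey), each list ordered by change, with dotted lines at 1.5-fold. Named grey points rose or fell; in the galactose use and lipid lists 0 genes did.

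For each of the 3 genes changed by at least 1.5-fold, the genes with the most similar values were found by the root mean square difference over the 6 arrays, each gene's values taken relative to its own wild-type mean. This measure follows mainly the size of the difference between the strains, and 6 arrays in 2 groups say little beyond that. Nearest to gal7 were isp6 (difference 0.083), put4 (0.18) and ste4 (0.24), of which isp6 encodes a vacuolar serine protease and ste4 an adaptor of the pheromone response. Nearest to gal10 were dam1 (0.086), mal1 (0.093) and mad2 (0.099), where dam1 encodes a kinetochore subunit and mad2 a spindle checkpoint protein. Nearest to say1 were mmf2 (0.19), cao1 (0.25) and urg2 (0.37), of which cao1 encodes a copper amine oxidase and urg2 is a uracil-regulated gene.

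The direction of each of the 5 genes was the same under 17 other settings of the processing, the leaving out of each array included. Several of these could not move it: other variance settings, the replicate block alone, the background filter, fitting all probe sets and averaging per gene left each log2 change as it was. Only other scalings, the gene length correction and leaving out an array could alter it. Over these settings the log2 change ran from 2.40 to 2.63 for say1, from 1.60 to 1.72 for gal7, from 0.93 to 1.15 for gal10, from 0.11 to 0.34 for gal1 and from -0.29 to -0.08 for mel1.

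**Figure D5:**
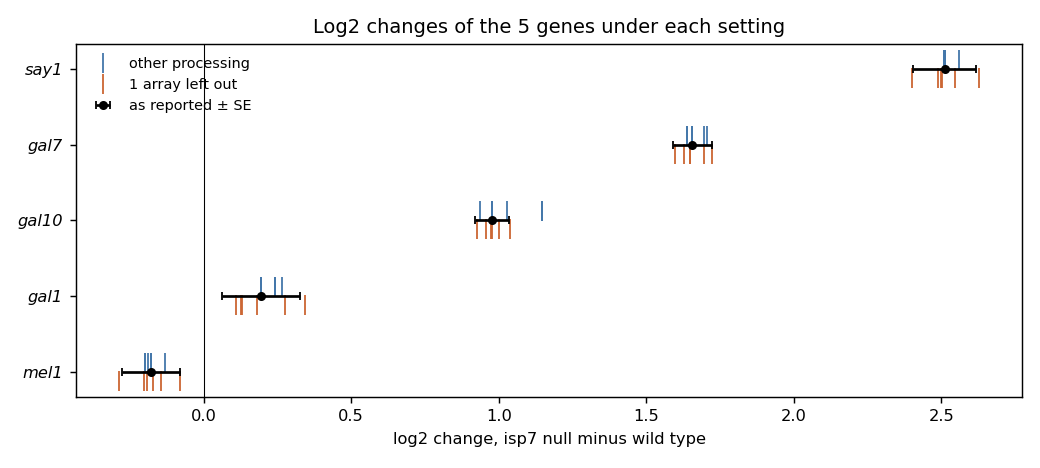
Log2 change (isp7 null minus wild type) of the 5 genes as reported (black point ± SE), under other processing (blue ticks) and with 1 array left out (orange ticks). The ticks of say1, gal7, gal10 and gal1 lie above 0 and those of mel1 below 0.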

How the data were processed

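The authors deposited RMA values on the log2 scale for each probe set, and the submitters' processing notes name RMA and Partek 6.5. With RMA the probe intensities of all arrays are given 1 distribution, so a change in the RNA content of cells cannot be seen. The values of the *S. pombe* probe sets alone need not share 1 distribution. The table has 10928 probe sets; 5538 are named in the platform annotation, and 113 *S. pombe* symbols were updated through RefSeq gene IDs. The RefSeq table of assembly ASM294v3 was used for names, lengths and gene order only, and its coordinates are not printed, since no source used here names the build behind the array. The 2917 *S. pombe* probe sets were fitted with limma 3.58.1 (lmFit, eBayes) in R 4.3.3, ~ group, two-sided, with Benjamini-Hochberg adjustment over all of them. Precision is limited by the 3 arrays per group. The code was tested on simulated data.

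The members, lists and tests were chosen with earlier results of these data known. The rule named the 5 genes, isp7, every measured flanking gene and called genes of the lists. It also named uge1, gms1 and fyu1 (which has no named probe set), and the 3 most similar genes. The genes tlh2, pvg2, mbx2 and fbp1, the regulators of glucose repression and the lipid genes were named after their values were seen. A gene with several probe sets is given by that with the highest mean. The list entry pvg4 is an older name of mbx2, a transcription factor gene. Errors are SD over 3 arrays, or SE of the fit for changes. Replicate numbers were not taken to pair the arrays: deviations of same-numbered arrays correlated at -0.12, -0.25 and 0.11. Those of differently numbered arrays ran from -0.12 to 0.25, the highest being wild-type array 1 with null array 2. Planned promoter motif and protein comparisons were not analysed here. Alternatives were other variance priors, the replicate block, other scalings, filters, averaging per gene, a gene length correction and leaving out each array.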

Additional observations from a re-analysis of the deposited data

How the results depend on the processing

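All 5 genes kept their direction in the 17 settings run, of which only other scalings, the gene length correction and leaving out an array could move a log2 change. The log2 change moved by more than the spread between replicates only for gal10, at 1.15 with the gene length correction, alone or with the replicate block. The lists of flanking genes and chromosome ends depend on how far they reach, in their counts and in the share called. With 5 flanking genes per side 1 rose and 1 fell of 3 measured (66.7% called). With 10 per side 2 rose and 1 fell of 4 measured (75% called). With 15 genes per chromosome end 1 rose and 0 fell of 12 measured (8.33% called). With 60 genes per end 10 rose and 5 fell of 106 measured (14.2% called). The share was 20.6% with 30 genes per end and 8.60% over all *S. pombe* probe sets. Leaving out each array in turn gave 4 to 5 rises at the chromosome ends, and 118 to 140 rises and 120 to 143 falls over all *S. pombe* probe sets. With the replicate block, although the numbers do not pair the arrays, 124 probe sets rose and 128 fell, and the SE of the say1 change was 0.11 and that of the gal1 change 0.10. The gene length correction left 89 falls in place of 128. The wild-type values of gal10, mel1 and say1, within 0.83 of the background, may limit how well their changes are measured.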
